A study of Homo sapiens with 6 samples.

Results

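Interleukin-1 (IL-1) family genes were examined in COV434 cells after the chromatin remodeling ATPase BRG1 was put back. COV434 is an established ovarian line which the study treats as SCCOHT, a small cell carcinoma of the ovary that lacks BRG1, the product of SMARCA4. The 10 genes were IL1A, IL1B, IL18 and IL33 (agonist ligands), IL1RN (receptor antagonist) and IL1R1, IL1RAP, IL1R2, IL1RL1 and IL18R1 (receptor chains). They were taken by gene symbol from a table of 19899 genes, and all 10 were found. Control cells (n = 3) carried the pCDNA3-neo plasmid and BRG1 cells (n = 3) the PBJ5-BRG1 plasmid. Both groups also received pBABE-puro, a puromycin resistance plasmid, were given puromycin at 2 to 3 µg/ml from 24 hours after transfection and were collected after 3 days of selection. The labels call the samples biological replicates. BRG1 came from a transfected plasmid and the cells were selected as a pool, so each value is an average over a culture.

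The IL-1 family holds secreted cytokines that start inflammation and the receptors that sense them. IL-1α and IL-1β bind the receptor IL1R1, which then recruits the accessory chain IL1RAP. Inside the cell the adaptor MYD88, IRAK kinases and TRAF6 pass the signal on to NF-κB and AP-1. The antagonist made from IL1RN occupies IL1R1 without recruiting IL1RAP, and IL1R2 is a decoy that binds IL-1 without signaling. IL-18 and IL-33 use the receptor chains IL18R1 and IL1RL1. IL-1β and IL-18 are made as precursors that caspase-1 cuts, whereas IL-1α is active before cutting and its precursor is also cut by calpains. Epithelial cells hold IL-1α, IL-18 and the IL-1 antagonist, and in the ovary IL-1 is best known for its part in ovulation.

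Of the 10 genes, 6 rose with BRG1: IL1B, IL18, IL1A, IL1RN, IL1RAP and IL1R2 (DESeq2 adjusted p under 0.05). None fell, also at an unadjusted p under 0.05 and with edgeR. Over all genes tested by DESeq2, 11.0% were called higher and 1.84% lower. edgeR tested 6 of the members and called 5 higher, against 9.57% of the genes it tested (1.02% lower). Of these 5, IL1A, IL1B, IL18 and IL1RN passed its low-count filter through their BRG1 counts, so that comparison adds no support. Without the filter edgeR tested all 10 members and called the same 5, against 1465 of 18096 genes. IL1R2, which the filter left out, was not called then either (edgeR adjusted p = 0.085). With the sample number as a block, DESeq2 called the same 5 higher, against 13.4% of the genes tested then, and none lower, against 6.61%. The fitted log2 fold change was above 0 in 10 of 10 members, against 49.9% of all genes with a count. In the same 6 members every BRG1 sample lay above every Control sample, which was the case for 15.4% of all genes with a count. The median log2 fold change was 4.47 over the members and 0.00 over all genes. It was 3.24 when the 2 members whose Control samples all held 3 counts or fewer (IL1RN and IL1RL1) were set to a lower bound against 3 counts per library.

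The samples held 29699741 to 63613710 estimated counts, with BRG1 sample 3 the shallowest. SMARCA4, the transfected gene, had 1439 to 1676 normalised counts (counts divided by the sample's size factor) in Control and 78589 to 108655 in BRG1 samples, plasmid transcripts included, with BRG1 sample 1 the highest. SMARCA2, whose loss together with that of SMARCA4 marks SCCOHT, had 3.79 to 35.7 normalised counts across the 6 samples. Granulosa cell markers were mixed. FOXL2 had at most 1.22 and FSHR at most 2.49 normalised counts in any sample, INHA had 35.7 to 47.5 and AMH 227 to 455, and CYP19A1 (aromatase) rose from 15.8 to 31.8 in Control to between 251 and 455 in BRG1 samples (DESeq2 adjusted p = 8.7e-20).

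The stretches upstream of 5 of the members that rose and of IL36G, a relative from the same gene cluster that also rose, are shown because the counts of these genes rose together. Each is the 250 bases before the start of the gene's MANE Select transcript, the standard reference transcript, read 5′ to 3′ on the gene's own strand, in GRCh38.p14 from RefSeq. Capitals mark letters that matched a searched motif. IL18 had no entry. The counts sum all transcripts of a gene, and which start is used in these cells was not measured; IL1RN has 3 windows from different starts and IL1A and IL1R2 have 2 each.
IL1A, chr2:112784494-112784743, minus strand: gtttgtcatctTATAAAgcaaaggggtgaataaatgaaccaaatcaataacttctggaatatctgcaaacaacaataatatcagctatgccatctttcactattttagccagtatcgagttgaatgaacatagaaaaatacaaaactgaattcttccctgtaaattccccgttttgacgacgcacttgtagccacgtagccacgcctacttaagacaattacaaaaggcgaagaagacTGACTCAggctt
IL1B, chr2:112836780-112837029, minus strand: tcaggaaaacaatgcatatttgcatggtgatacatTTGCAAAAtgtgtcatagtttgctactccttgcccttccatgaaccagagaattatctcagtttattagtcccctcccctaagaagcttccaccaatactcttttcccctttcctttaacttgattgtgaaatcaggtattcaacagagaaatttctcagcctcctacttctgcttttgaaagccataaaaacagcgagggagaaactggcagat
IL1RN, chr2:113127348-113127597, plus strand: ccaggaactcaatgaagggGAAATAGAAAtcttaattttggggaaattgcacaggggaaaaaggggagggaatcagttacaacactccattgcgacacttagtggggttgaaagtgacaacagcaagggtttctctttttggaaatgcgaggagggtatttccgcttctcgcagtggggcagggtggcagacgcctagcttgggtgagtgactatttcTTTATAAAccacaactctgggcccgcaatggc
IL36G, chr2:112977756-112978005, plus strand: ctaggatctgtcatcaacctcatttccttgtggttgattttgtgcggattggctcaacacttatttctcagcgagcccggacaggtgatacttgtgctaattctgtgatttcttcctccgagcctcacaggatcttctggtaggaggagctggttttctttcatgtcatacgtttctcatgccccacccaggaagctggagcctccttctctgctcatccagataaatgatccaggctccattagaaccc
IL1RAP, chr3:190513835-190514084, plus strand: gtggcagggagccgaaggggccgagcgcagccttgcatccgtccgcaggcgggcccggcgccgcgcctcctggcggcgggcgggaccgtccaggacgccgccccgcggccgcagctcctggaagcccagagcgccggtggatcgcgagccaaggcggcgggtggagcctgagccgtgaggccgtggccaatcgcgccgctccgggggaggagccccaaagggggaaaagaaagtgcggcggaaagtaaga
IL1R2, chr2:101991710-101991959, plus strand: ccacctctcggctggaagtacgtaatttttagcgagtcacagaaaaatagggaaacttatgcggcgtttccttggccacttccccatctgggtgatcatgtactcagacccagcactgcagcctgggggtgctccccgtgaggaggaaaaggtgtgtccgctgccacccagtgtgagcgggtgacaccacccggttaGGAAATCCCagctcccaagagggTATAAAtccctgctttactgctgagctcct

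The motifs were searched on both strands of windows that ran from 250 bases before to 50 bases after each start. They were AP-1 (TGANTCA), NF-κB (GGGANTTCC, or the same with 1 more free base after the N), C/EBP (TTGCNNAA), ETS (GAGGAAGT), the TATA box (TATAAA) and the interferon-stimulated response element or ISRE (GAAA repeated after 2 free bases). In the windows shown no match overlapped a match of another motif, and the TATA letters of IL1RN were matched on both strands. IL1A held AP-1 letters at -12 to -6 and again at 38 to 44 from the start, and TATA letters at -239 to -234. The AP-1 letters stood in 7.71% of 35116 promoter windows, with 2 or more matches in 0.515%. IL1B held C/EBP letters at -215 to -208, as did 10.5% of windows. IL1RN held ISRE letters at -231 to -222, found in 3.57% of windows, and TATA letters at -30 to -25, found in 11.53%. Another IL1RN window, from a different start and not shown, held AP-1 letters at -223 to -217. Taken over all windows of a gene, AP-1 letters stood in 9.37% of genes. IL1R2 held NF-κB letters at -53 to -45, found in 3.39% of windows, and TATA letters at -30 to -25. IL36G and IL1RAP held none of the 6 motifs. Members that were not called, whose windows are not shown, held matches too. IL1RL1 held AP-1 letters at -191 to -185 in 1 window and TATA letters at -29 to -24 in another. IL1R1 held C/EBP and TATA letters and IL18R1 ISRE letters, while IL33 held none. The windows shown also differed in composition. GC content was 39.7% for IL1A, 42.3% for IL1B, 49.7% for IL1RN and IL36G, 56.3% for IL1R2 and 73.7% for IL1RAP, beside a median of 58.7% and quartiles of 47.0% and 68.0% over all windows. The IL1RAP window held 36 CpG pairs and that of IL1B held 2, against a median of 14.

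Of the 4 agonist ligands, 3 rose, beside 11.0% of all genes tested by DESeq2. IL1B (chromosome 2, 112829751 to 112836816, minus strand), the main inflammatory agonist, had 9.75, 4.69 and 1.51 normalised counts in Control samples 1 to 3 and 1288, 583 and 476 in BRG1 samples 1 to 3. The lowest BRG1 sample lay far above the highest Control sample. Means were 5.32 ± 4.15 (Control) and 782 ± 441 (BRG1; SD, n = 3). The log2 fold change was 7.30 ± 0.59 (SE; DESeq2 adjusted p = 8.1e-33, edgeR adjusted p = 0.00040). Among the 1764 genes called higher, IL1B ranked 119 by log2 fold change.

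IL18 (chromosome 11, 112143253 to 112164096, minus strand), which induces interferon-γ in lymphocytes, had 11.0, 8.21 and 4.54 normalised counts in Control and 1475, 616 and 267 in BRG1 samples 1 to 3. The groups did not overlap, and the BRG1 samples spread over a wider range than for IL1B. Its log2 fold change was 6.67 ± 0.62 (SE; DESeq2 adjusted p = 6.3e-25, edgeR adjusted p = 0.0011). Taken by sample number, the fold was 135, 75.1 and 58.8.

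IL1A (chromosome 2, 112773925 to 112784493, minus strand), whose product also acts as an alarm signal from damaged cells, had 3.65, 4.69 and 0 normalised counts in Control and 338, 113 and 91.0 in BRG1 samples 1 to 3. BRG1 sample 1 stood above the other two, and the groups did not overlap. The log2 fold change was 6.16 ± 0.83 (SE; DESeq2 adjusted p = 4.9e-12, edgeR adjusted p = 0.0039). As these Control values rest on 0 to 4 counts a library, the size of the fold is set largely by a few counts.

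IL33 (chromosome 9, 6215786 to 6257983, plus strand), a nuclear alarm cytokine of epithelial and endothelial cells, did not pass the test. It had 14.6, 1.17 and 2.27 normalised counts in Control and 13.1, 29.9 and 28.4 in BRG1 samples 1 to 3. Control sample 1 lay above BRG1 sample 1, so the groups overlapped, and IL33 was the only agonist in which BRG1 sample 1 was the lowest of its group. The log2 fold change was 2.01 ± 0.98 (SE; DESeq2 adjusted p = 0.20). Without Control sample 1 it was 3.72 with a DESeq2 adjusted p of 0.0076, but leaving out any other sample gave adjusted p values of 0.31 to 0.61.

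The antagonist rose beside the agonists. IL1RN (chromosome 2, 113099315 to 113134016, plus strand) had 0, 0 and 1.51 normalised counts in Control and 243, 145 and 58.2 in BRG1 samples 1 to 3. All 3 BRG1 samples were far above Control, where the estimated counts summed to 2. Over the pooled samples the ratio of counts, scaled by the size factors, was 252 with an exact 95% interval from 69.5 to 2088. The interval treats the rounded estimates as read counts and covers counting error only. DESeq2 gave a log2 fold change of 7.86 ± 1.20 (SE; adjusted p = 1.6e-09, edgeR adjusted p = 0.0014). The count table sums transcripts, so the secreted and the intracellular forms of the antagonist could not be told apart.

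**Figure D1:**
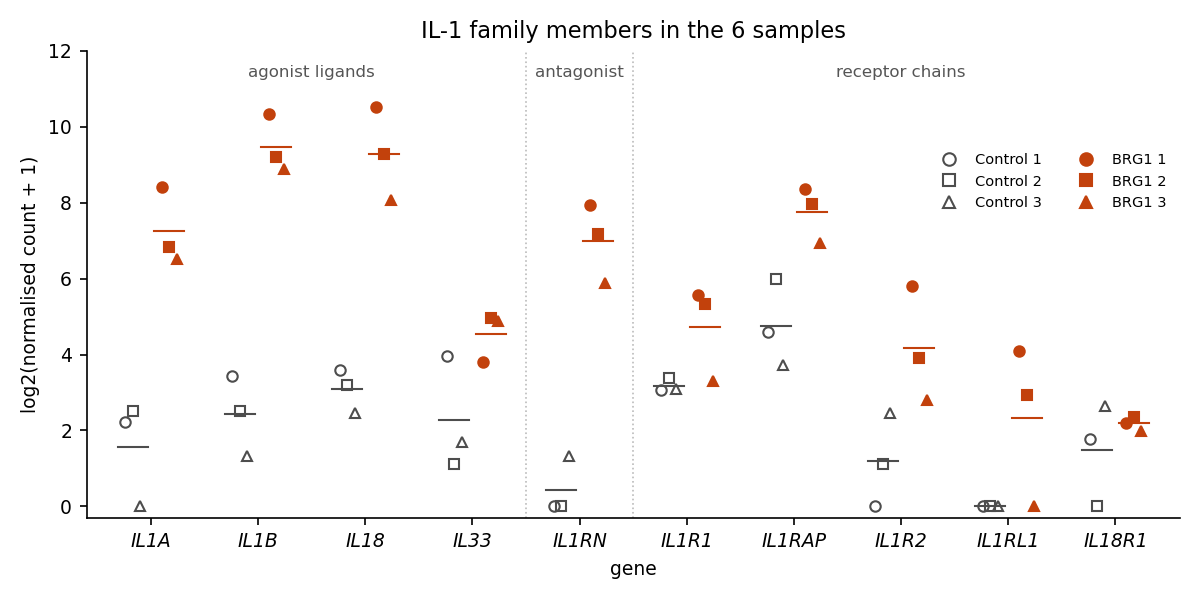
Normalised counts of the 10 members in each of the 6 samples, drawn as log2(normalised count + 1), with open symbols for Control, filled symbols for BRG1, a symbol for each sample number and a bar at the group mean of the plotted values. IL1A, IL1B, IL18, IL1RN, IL1RAP and IL1R2 show no overlap between groups, while IL33, IL1R1, IL1RL1 and IL18R1 do.

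Of the 5 receptor chains, 2 rose by DESeq2, beside 11.0% of all genes tested. The edgeR filter kept only IL1RAP of the 5, and edgeR called it, beside 9.57% of the genes it tested. IL1RAP (chromosome 3, 190514051 to 190659750, plus strand), the accessory chain shared by the IL-1, IL-33 and IL-36 receptors, had 23.1, 62.1 and 12.1 normalised counts in Control and 329, 250.03 and 122 in BRG1 samples 1 to 3. The groups did not overlap, although the highest Control sample reached 62.1. The log2 fold change was 2.86 ± 0.59 (SE; DESeq2 adjusted p = 2.2e-05, edgeR adjusted p = 0.024). By sample number the fold was 14.2, 4.02 and 10.1.

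IL1R2 (chromosome 2, 101991960 to 102028544, plus strand), the decoy, had 0, 1.17 and 4.54 normalised counts in Control and 54.4, 14.1 and 5.97 in BRG1 samples 1 to 3. BRG1 sample 1 carried most of the group's counts. BRG1 sample 3, with 4 estimated counts, lay barely above Control sample 3, with 6. The log2 fold change was 3.61 ± 1.24 (SE; DESeq2 adjusted p = 0.031). That call did not hold with the sample number as a block (adjusted p = 0.061) or in edgeR with no low-count filter (adjusted p = 0.085). It was also lost without BRG1 sample 1 (adjusted p = 0.65), BRG1 sample 2 (0.10), Control sample 1 (0.12) or Control sample 2 (0.13).

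IL1R1 (chromosome 2, 102064544 to 102179874, plus strand), the signaling receptor itself, had 7.31, 9.38 and 7.57 normalised counts in Control and 46.4, 39.0 and 8.96 in BRG1 samples 1 to 3. BRG1 samples 1 and 2 lay above Control and BRG1 sample 3 within it. The log2 fold change was 1.98 ± 0.76 (SE), which did not pass (DESeq2 adjusted p = 0.066). Without BRG1 sample 3 it was 2.41 with a DESeq2 adjusted p of 0.0019, but leaving out any other sample gave adjusted p values of 0.15 to 0.50. Without BRG1 sample 3 more genes were called higher over the whole table too, 1974 against 1764.

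The receptors of IL-33 and IL-18 were close to the detection limit. IL1RL1, the IL-33 receptor chain (chromosome 2, 102311502 to 102352037, plus strand), had 0 counts in all Control samples and 16.0, 6.65 and 0 normalised counts in BRG1 samples 1 to 3. BRG1 sample 3 thus equalled Control (DESeq2 adjusted p = 0.15). Without BRG1 sample 3 the adjusted p was 0.030, and without any other sample it was 0.24 to 0.56 where tested. IL18R1 (chromosome 2, 102311529 to 102398777, plus strand) had 2.44, 0 and 5.30 normalised counts in Control and 3.63, 4.15 and 2.99 in BRG1 samples 1 to 3, within each other's range (log2 fold change 0.44 ± 1.46, DESeq2 adjusted p = 0.94). The loci of IL1RL1 and IL18R1 overlap on the same strand, and 1.65% and 2.11% of their exonic bases lie in exons of another gene. The table counts the RNA of a whole culture, so more cells with a transcript and more transcript per cell cannot be told apart for any member.

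**Figure D2:**
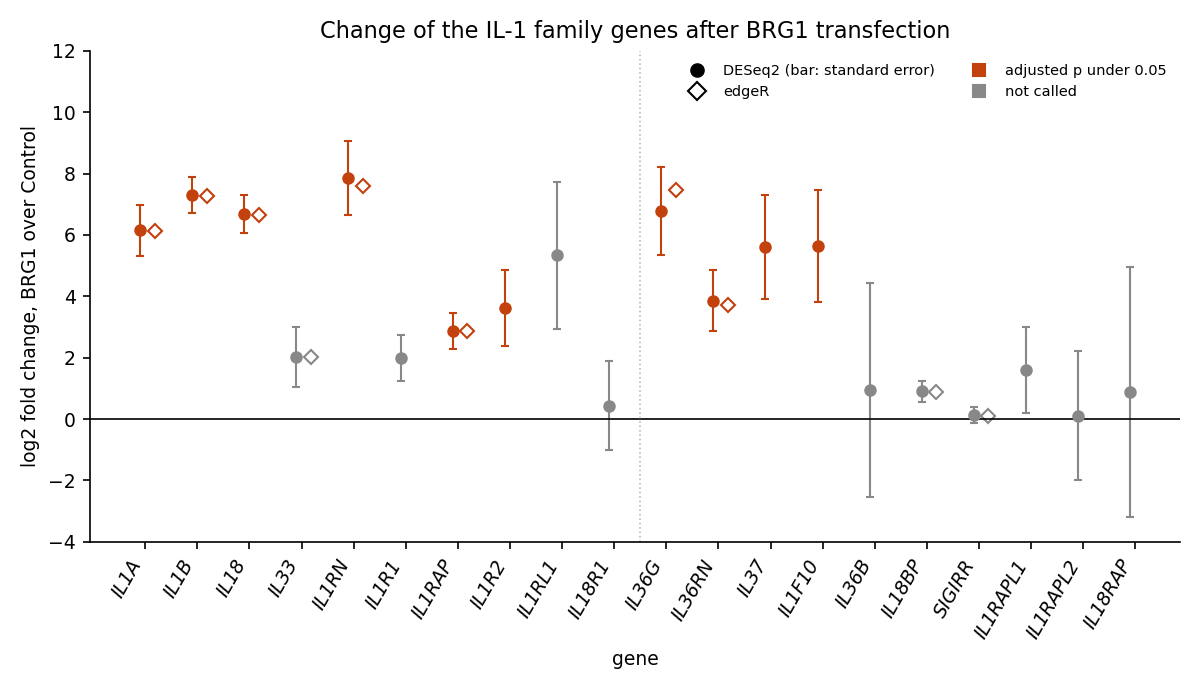
Log2 fold change (BRG1 over Control) of the 10 members and, right of the dotted line, of 10 other IL-1 family genes, from DESeq2 (circles, bars are standard errors) and edgeR (diamonds, for genes that passed its filter). Orange marks an adjusted p under 0.05. IL1B, IL18, IL1A, IL1RN and, right of the line, IL36G stand above 6 in both tools, and no fitted value drawn is below 0.

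Levels can be compared between genes only per length, so normalised counts were divided by the length of the MANE Select transcript in kilobases. The transcripts expressed in these cells may differ in length, so the order and ratios below depend on this reference length. In BRG1 samples IL18 had 705 ± 557 and IL1B 519 ± 293 normalised counts per kilobase (SD, n = 3), and their ranges overlapped. IL1A at 89.6 ± 67.8 and IL1RN at 87.2 ± 54.3 came next, and all 3 values of IL1A lay below all 3 of IL1B. IL1RAP followed at 49.2 ± 21.9, and its range overlapped that of IL1RN. IL1R2 had 16.98 ± 17.7, IL33 8.85 ± 3.47 and IL1R1 6.07 ± 3.83, with overlapping neighbours, while IL1RL1 had 3.77 ± 4.01 and IL18R1 0.865 ± 0.141. In Control the order was another: IL18 at 7.09 ± 2.89 and IL1RAP at 6.84 ± 5.54 led, and no member exceeded 13.1 in any sample. Within BRG1 samples 1 to 3 the level of IL1RN per kilobase was 0.167, 0.219 and 0.108 of that of IL1B, so IL1B stood above IL1RN in every BRG1 sample. IL1A stood above IL1RN in BRG1 samples 1 and 3 and below it in BRG1 sample 2 (56.0 against 84.8).

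**Figure D3:**
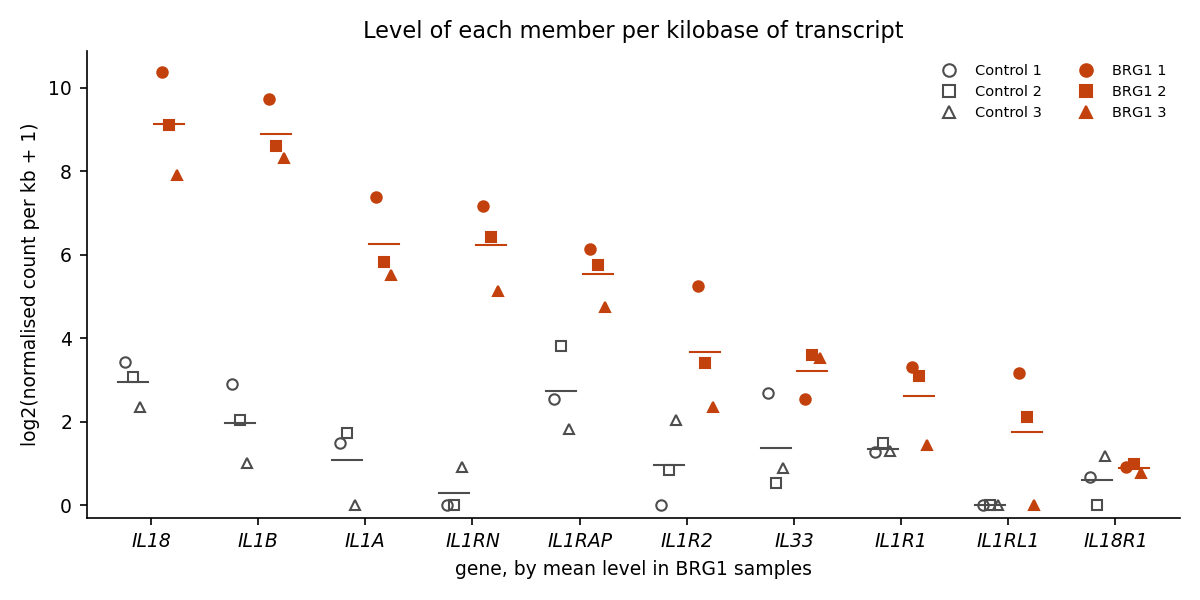
Level of each member per kilobase of its MANE Select transcript, as log2(normalised count per kilobase + 1), by sample, ordered by the mean in BRG1 samples; open symbols are Control, filled symbols BRG1, bars the group means of the plotted values. The ligands IL18 and IL1B lie above the receptor chains in all 3 BRG1 samples, and in Control IL18 and IL1RAP lie highest by the mean.

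The BRG1 samples differed among themselves in a shared way. BRG1 sample 1 was the highest of the 3 in 8 of the 10 members, and in each of the 6 called members it was the highest and BRG1 sample 3 the lowest. Among all 1764 genes called higher, BRG1 sample 1 was the highest in 76.4% and the order was the same as in those members in 68.4%. BRG1 sample 1 also had the highest SMARCA4 count (108655), while BRG1 samples 2 and 3 were alike in SMARCA4 (79075 and 78589) and unlike in IL18 (616 and 267). The part of the SMARCA4 level in this spread was not tested.

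The other 12 genes of the family were read next. DESeq2 tested 8 of them, of which 4 rose, beside 11.0% of all genes tested, and none fell. IL36G, an epithelial agonist of the IL-36 receptor (chromosome 2, 112973203 to 112985658, plus strand), had 0 counts in all Control samples and 26.1, 19.9 and 16.4 normalised counts in BRG1 samples 1 to 3, at least 6.61-fold higher against 3 counts per Control library (DESeq2 adjusted p = 3.6e-05, edgeR adjusted p = 0.0045). IL36RN, the IL-36 receptor antagonist, had 0, 1.17 and 3.03 in Control and 26.8, 17.4 and 23.9 in BRG1 samples 1 to 3 (DESeq2 adjusted p = 0.0014, edgeR adjusted p = 0.010). Both separated the groups fully and varied less among BRG1 samples than the main agonists did.

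IL37, an anti-inflammatory cytokine, had 0 counts in Control and 6.53, 9.14 and 11.9 normalised counts in BRG1 samples, at least 2.92-fold higher (DESeq2 adjusted p = 0.010). IL1F10, also known as IL-38, had 0 in Control and 17.4, 7.48 and 2.99 in BRG1 samples, at least 2.95-fold higher (DESeq2 adjusted p = 0.020). Neither call held with the sample number as a block (adjusted p = 0.055 and 0.074). The filter of edgeR left both out, and without it edgeR called both (adjusted p = 0.023 and 0.042). Both therefore stand on a few counts per library.

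Among those not called, IL18BP, the secreted protein that neutralizes IL-18, was the only one expressed well in both groups besides SIGIRR. IL18BP had 292, 328 and 259.7 normalised counts in Control and 816, 493 and 331 in BRG1 samples 1 to 3. The groups did not overlap, but BRG1 sample 3 lay just above the highest Control sample, and the log2 fold change of 0.90 ± 0.34 (SE) did not pass (DESeq2 adjusted p = 0.056); with the sample number as a block it did (adjusted p = 0.015). Exons of another gene cover 17.6% of its exonic bases, so part of its counts is uncertain. Per kilobase, IL18BP stood at 173 ± 20.2 and IL18 at 7.09 ± 2.89 in Control, against 322 ± 145 and 705 ± 557 in BRG1 samples.

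SIGIRR, an inhibitory receptor of the family, had 229 to 375 normalised counts in Control and 302 to 407 in BRG1 samples, a difference within the replicate spread (log2 fold change 0.12, DESeq2 adjusted p = 0.90). IL36A and IL1RL2, the IL-36 receptor chain, had no count in any sample. IL36B reached at most 1.49 and IL18RAP, the second chain of the IL-18 receptor, at most 0.831 normalised counts. IL1RAPL1 and IL1RAPL2, synaptic relatives of IL1RAP, reached at most 8.31 and 7.46. A count of 0 allows up to 3 counts in a library, which is 2.18 to 4.48 normalised counts here, so these 4 receptor genes and IL36A and IL36B were at or near the limit and not shown to be absent.

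Most of the family lies in gene clusters on chromosome 2, one of ligands and one of receptors. The ligand cluster spans 360 kb (chromosome 2, 112773925 to 113134016) and holds 9 protein-coding genes in the order IL1A, IL1B, IL37, IL36G, IL36A, IL36B, IL36RN, IL1F10 and IL1RN. Of these 9, DESeq2 called 7 higher, beside 11.0% of all genes tested, and none lower. The filter of edgeR kept IL1A, IL1B, IL36G, IL36RN and IL1RN, each through its BRG1 counts. edgeR called these 5, beside 9.57%, which adds no support, or 7 with no low-count filter. DESeq2 with the sample number as a block called 5, beside 13.4%. The largest counts stood at the ends: IL1A and IL1B at one end and IL1RN at the other, with IL36A and IL36B between them at or near 0. The receptor cluster spans 461 kb (chromosome 2, 101991960 to 102452565) and holds IL1R2, IL1R1, IL1RL2, IL1RL1, IL18R1 and IL18RAP. DESeq2 called 1 of these 6 higher, IL1R2, beside 11.0% of all genes tested. It called 0 with the sample number as a block, and edgeR called 0, also with no low-count filter. IL18, IL33 and IL1RAP lie on chromosomes 11, 9 and 3. Neighbouring genes are not independent observations.

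**Figure D4:**
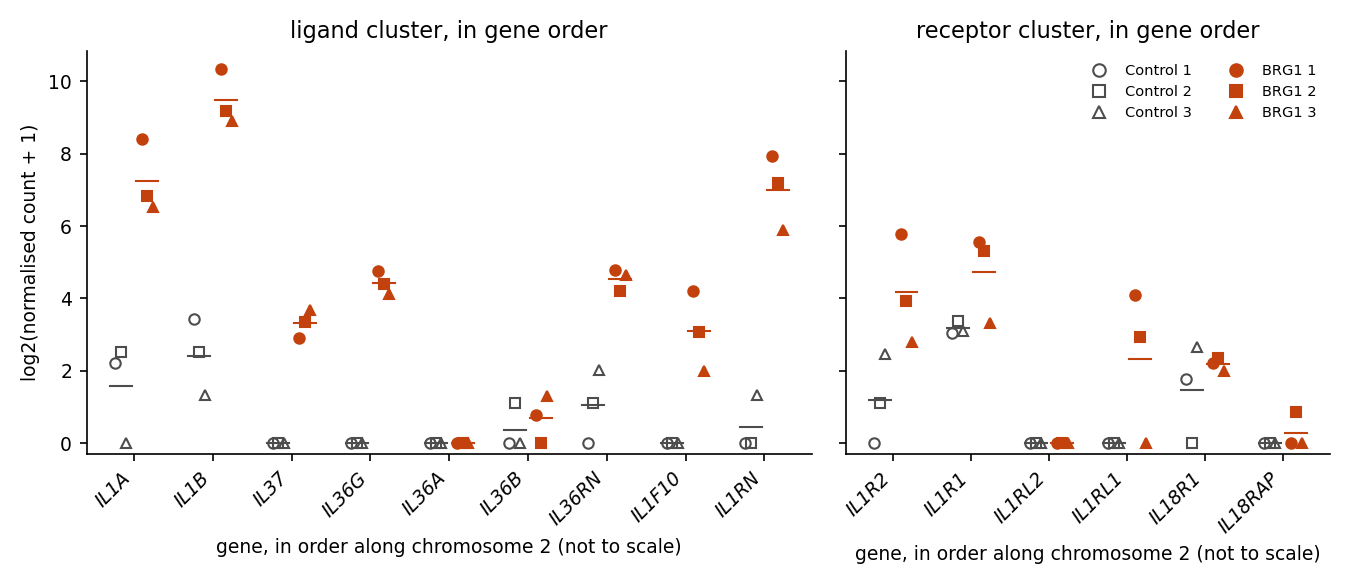
Normalised counts, as log2(normalised count + 1), of the 9 genes of the ligand cluster (left) and the 6 genes of the receptor cluster (right) in their order along chromosome 2, by sample; open symbols are Control, filled symbols BRG1, bars the group means of the plotted values, and distances are not to scale. In the ligand cluster 7 of 9 genes were called higher with IL36A at 0 and IL36B near 0, and in the receptor cluster only IL1R2 was.

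Genes that process and release IL-1 cytokines, relay the signal or respond to it were read as lists, and in none of the 3 lists did a gene fall at an unadjusted p under 0.05 or in edgeR. Processing and release came first. Of its 20 genes, 16 were tested by DESeq2, of which 3 rose, beside 11.0% of all genes tested, and none fell. The median log2 fold change was 0.35, against 0.00 over all genes. CASP4, an inflammatory caspase that senses bacterial lipopolysaccharide inside the cell, had 93.8, 92.6 and 62.1 normalised counts in Control and 466, 334 and 189.6 in BRG1 samples 1 to 3, without overlap (log2 fold change 2.00 ± 0.38, DESeq2 adjusted p = 2.2e-06, edgeR adjusted p = 0.011). CAPN2, a catalytic calpain subunit, had 6189 to 6460 in Control and 8793 to 17605 in BRG1 samples (log2 fold change 1.04 ± 0.26, DESeq2 adjusted p = 0.00063, edgeR adjusted p = 0.022).

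CASP1, the enzyme that matures IL-1β and IL-18, was present in both groups. It had 151, 147 and 127 normalised counts in Control and 288, 315 and 181 in BRG1 samples 1 to 3, and every BRG1 sample lay above every Control sample. Its log2 fold change was 0.89 ± 0.28 (SE; DESeq2 adjusted p = 0.015), a call that edgeR did not make (adjusted p = 0.096). Other inflammasome genes, chosen after their values were seen, ranged widely in level. The sensor NLRP1 had 364 to 581 normalised counts in Control and 500.0 to 973 in BRG1 samples (DESeq2 adjusted p = 0.16) and passed with the sample number as a block (adjusted p = 0.0032). CARD8 had 421 to 634 and NLRC4 39.9 to 56.0 across the 6 samples. The adaptor PYCARD reached 2.27 normalised counts in Control and 0 in all BRG1 samples, and GSDMD, whose cut product forms the release pore, reached at most 1.45 in any sample. NLRP3, a sensor, reached 2.44 in Control and 16.0 in BRG1 samples (DESeq2 adjusted p = 0.36), and 66.0% of its exonic bases are shared with another gene. That share was 59.7% for PYCARD and 56.2% for NLRC4, so part of the counts of these genes is uncertain.

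The relay from the receptor to NF-κB was expressed in both groups. Of its 21 genes, all tested, 2 rose by DESeq2, beside 11.0% of all genes tested, and none fell. The median log2 fold change was 0.03. PELI1, an E3 ligase that acts on IRAK kinases, had 283, 308 and 176 normalised counts in Control and 1261, 1013 and 424 in BRG1 samples 1 to 3, without overlap (log2 fold change 1.82 ± 0.40, DESeq2 adjusted p = 8.4e-05, edgeR adjusted p = 0.026). PELI2, its relative, was the other call and was named after its values were seen, with 0.757 to 7.31 in Control and 18.3 to 47.9 in BRG1 samples (DESeq2 adjusted p = 0.0088). With the sample number as a block DESeq2 called 5 of the 21 higher, beside 13.4% of all genes. The adaptor MYD88, also chosen after its values were seen, was low in both groups, at 25.6 ± 13.7 and 25.7 ± 9.79 normalised counts (SD, n = 3). TRAF6, chosen in the same way, had 291 to 685 in Control and 473 to 2884 in BRG1 samples (DESeq2 adjusted p = 0.14), and passed with the sample number as a block (adjusted p = 3.1e-08).

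Of 24 genes known to respond to IL-1, DESeq2 tested 22, of which 10 rose, beside 11.0% of all genes tested, and none fell. edgeR called 7 higher, beside 9.57%, and with the sample number as a block both tools called 12 higher, beside 13.4% of all genes in DESeq2. The median log2 fold change was 1.62, or 1.25 over the 23 genes above the floor with those at a bound set to it. CCL2, a monocyte chemokine, had 240.0, 145 and 40.1 normalised counts in Control and 20208, 11733 and 2131 in BRG1 samples 1 to 3 (log2 fold change 6.32 ± 1.02, DESeq2 adjusted p = 1.6e-08, edgeR adjusted p = 0.0046). IL6, an inflammatory cytokine, had 1.22, 7.04 and 3.03 in Control and 782, 117 and 29.9 in BRG1 samples, so that BRG1 sample 1 held most of its counts (log2 fold change 6.37, DESeq2 adjusted p = 6.4e-05, edgeR adjusted p = 0.021). Both separated the groups without overlap.

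PTGES, which makes prostaglandin E2, had 4.69 to 7.31 normalised counts in Control and 523, 166 and 100.001 in BRG1 samples 1 to 3 (log2 fold change 5.45, DESeq2 adjusted p = 3.5e-14). LCN2, an iron-withholding protein of epithelia, had 1.51 to 2.44 in Control and 171, 117 and 49.3 in BRG1 samples. From the pooled counts of LCN2 the ratio was 62.9 (DESeq2 adjusted p = 1.5e-11). Its exact 95% interval for counting error, with the rounded estimates treated as read counts, was 28.7 to 172. CCL20, a chemokine for dendritic cells and lymphocytes, had 21.2 to 26.8 in Control and 878, 1001 and 70.1 in BRG1 samples 1 to 3 (log2 fold change 4.75, DESeq2 adjusted p = 1.8e-05). In all of these BRG1 sample 3 was the lowest of its group and still above Control. Other classical targets, chosen after their values were seen, did not pass: CXCL1 had 3437 to 3918 in Control and 3188 to 4203 in BRG1 samples (DESeq2 adjusted p = 0.97), and PTGS2 had 40.1 to 90.1 and 49.3 to 91.4 (DESeq2 adjusted p = 0.95).

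**Figure D5:**
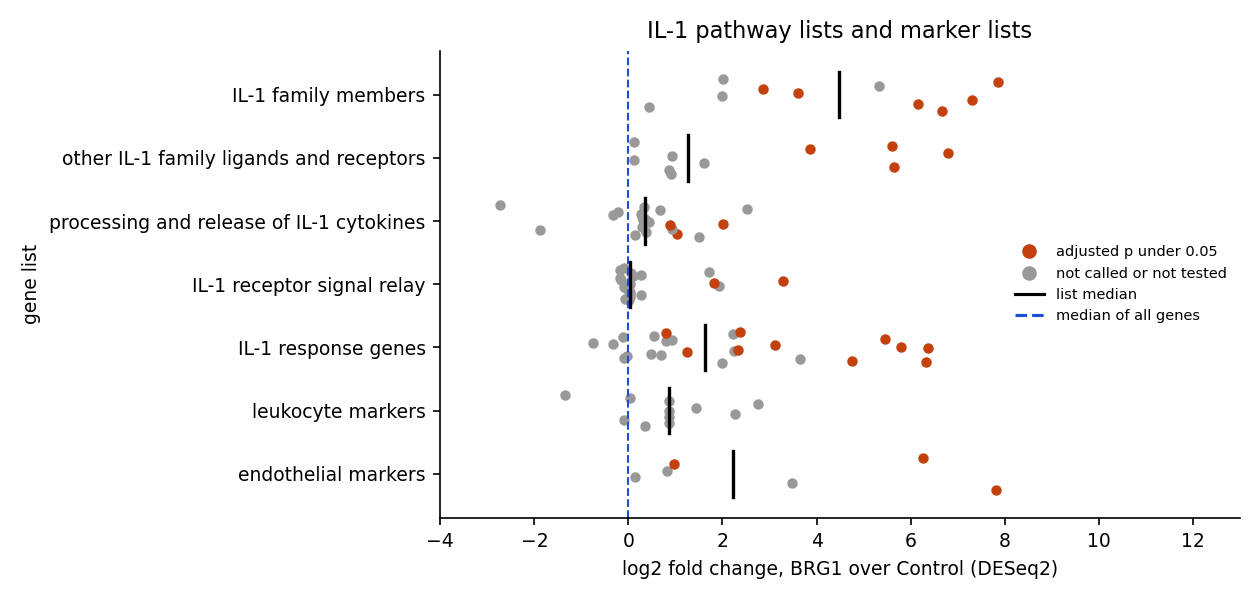
Log2 fold change (BRG1 over Control, DESeq2) of each gene of 5 IL-1 pathway lists and 2 marker lists; orange points have an adjusted p under 0.05, black bars are list medians and the dashed line is the median of all genes. The 10 members have a median of 4.47 and the signal relay genes one of 0.03.

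Markers of cell types that make IL-1 cytokines were read in the same samples. Neither DESeq2, which tested 4 of 12 leukocyte markers, nor edgeR called any of them, and 1 had an unadjusted p under 0.05 (DESeq2). PTPRC (CD45), the pan-leukocyte marker, had 336, 509 and 669 normalised counts in Control and 360, 477 and 722 in BRG1 samples 1 to 3, with no difference beyond the spread (DESeq2 adjusted p = 0.98). The other 11 summed to 4.69 to 17.1 in Control and 22.4 to 34.1 in BRG1 samples. Of these 11, 7 held 3 counts or fewer in every sample. CD163, CD3E, MS4A1 and TPSAB1 were at or below 1 normalised count in every sample. ITGAX, the marker with that unadjusted p, had 0.757 to 2.44 in Control and 17.4, 9.14 and 1.49 in BRG1 samples 1 to 3. CSF1R had 0 to 4.87 in Control and 5.97 to 12.5 in BRG1 samples, without overlap, as in 15.4% of all genes with a count. CD14 and ITGAM overlapped between the groups. Of 6 endothelial markers, 3 rose, beside 11.0% of all genes tested: VWF from 25.6 to 81.8 in Control to between 3224 and 3657 in BRG1 samples, CDH5 from at most 1.51 to between 43.3 and 272, and TEK from at most 569 to between 840 and 1095. KDR was present throughout at 1294 to 2304, PECAM1 reached at most 37.3 and ERG at most 13.1. The endothelial list summed to 1733 to 2641 in Control and 6433 to 6846 in BRG1 samples, and its part in the IL-1 family result was not tested.

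Genes with the most similar profiles to the leading members were looked up over the 6 samples. Likeness was the root mean square difference between profiles of log2(normalised count + 1), each centred on its own mean, among 13454 genes with a mean of at least 20. For IL1RN the nearest were REG1B (0.17), CDH5 (0.21) and SERPINA9 (0.33), for IL1B they were TRIM29 (0.29), LY6G6C (0.32) and CDH13 (0.32), and for IL18 they were TIMP3 (0.17), COL4A2 (0.24) and KLK6 (0.26). All 9 were called higher by DESeq2, which follows from their likeness to members picked because they were called higher. The 6 samples share libraries and group labels, so these values describe likeness only.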

How the data were processed

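RNA of 3 Control and 3 BRG1 samples of COV434 cells was made into poly(A) libraries without strand information from 500 ng of RNA and sequenced as pairs of 78 bases. The authors aligned reads with STAR (2.5.3a) to GENCODE on hg38, used salmon (0.8.2) for transcript abundance and tximport for gene totals. The authors deposited estimated counts, one row per symbol, in which TPM was rescaled by transcript length and sequencing depth. Reads shared between genes are apportioned by the model, antisense transcripts add to a gene, and SMARCA4 includes plasmid transcripts.

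After rounding to whole numbers, the 19899 genes, 18096 with a count, were tested with DESeq2 (1.42.0, R 4.3.3), BRG1 against Control without covariates, as the study's methods name DESeq2. Calls had a Benjamini-Hochberg adjusted p under 0.05 over all tested genes. The quasi-likelihood test of edgeR (4.0.16) was the main check, and limma-voom (3.58.1) was an alternative. Tested on simulated data, the share of false calls exceeded the nominal rate in DESeq2 and not in edgeR. With 3 against 3 samples, an exact permutation test cannot go below 0.1 and was not used. Counting error follows from totals of 29699741 to 63613710 per sample, and 3 counts per library were taken as the floor. Positions are from GENCODE release 44 (GRCh38).

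The study design states biological replicates. The sample titles do not state that equal numbers were paired. Deviations from the group means correlated at 0.52, 0.52 and 0.61 for equal numbers, over 11686 genes with a mean of at least 100. For unequal numbers the correlations ran from -0.52 to 0.07. A fit with the number as a block was therefore run as an alternative, and the main fit has no pairing.

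The members and lists were chosen with earlier results of these data known. Named were all family genes, up to 5 called genes of each pathway list (mean normalised count 20 or more) by the size of the change, SMARCA4 and SMARCA2, and the 3 nearest profiles of 3 members. Markers were listed as checks of other cell types.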

Additional observations from a re-analysis of the deposited data

How the results depend on the processing

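Over 17 alternative settings, IL1A, IL1B, IL18, IL1RN and IL1RAP stayed called higher wherever they were fitted, with log2 fold changes of 5.34 to 6.88, 6.77 to 8.09, 5.86 to 7.11, 7.30 to 9.41 and 2.46 to 3.76. Members called higher numbered 5 to 8 and members called lower 0 in all of them. Members with a fitted value above 0 numbered 6 with edgeR, edgeR with the replicate block and limma-voom, where filters kept 6 members. Of these, IL1A, IL1B, IL18 and IL1RN had at most 9 counts in any Control library and passed the filter through their BRG1 counts. Their sign in those settings was therefore fixed beforehand and, like their calls there, adds no support. Leaving out 1 sample gave 9 to 10 members above 0. IL18R1 ranged from -0.13 without Control sample 2 to 1.58 without Control sample 3. IL33 passed only without Control sample 1, and IL1R1 and IL1RL1 only without BRG1 sample 3. IL1R2 was the member whose call was lost. The replicate block, in DESeq2, changed no other member's call. edgeR with no low-count filter was chosen after seeing the data, as its filter left out IL1R1, IL1R2, IL1RL1 and IL18R1.

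Over all genes, the 294 lower calls became 1035 under the replicate block and 809 when edgeR carried that block. They were 146 in edgeR, 149 in edgeR with no filter, 169 in limma-voom, 130 at a stricter adjusted p of 0.01, 11 where the log2 fold change had to reach 1, and 116 to 596 when 1 sample was left out. Higher calls moved from 1764 to between 1326 and 2095. The causes were not tested. Depth limits IL1R1, IL1R2, IL1RL1, IL18R1, IL37 and IL1F10, where every Control library held 10 counts or fewer and at least 1 BRG1 library 8 or fewer.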
